A study of Gallus gallus with 54 samples.

Results

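The 120 genes described here were those whose messenger RNA level differed most from one chicken heart library to the next. They were chosen from the 24881 gene identifiers of the deposited files by their measured spread. Levels were counts relative to library size (CPM), scaled by the trimmed mean of M-values (TMM), taken as log2(CPM + 1) and centred on the mean of each altitude group, and the standard deviation (SD) of a gene was taken over the 18 libraries of a tissue. Of the identifiers, 8859 had a heart mean of at least 5 CPM, and 2913 of these had their largest SD in heart. Leaving out genes whose absolute Pearson correlation with ENSGALG00000016400 over the hearts reached 0.5 left 2496. Leaving out genes with an SD under 1.5 and a heart mean of at least 8 times that of both other tissues left a pool of 2320, and the 120 with the highest heart SD were taken. These heart values chose the genes, so the heart levels and spreads below are descriptions without a test.

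The study sequenced heart, breast muscle and spleen of indigenous Ethiopian chickens (Gallus gallus) of 2 origins. A high altitude breed was labelled as lacking adaptation to heat, and a low altitude breed as heat-adapted. Each tissue had 9 libraries per origin, 54 in all, with codes H1 to H9 for high and L1 to L9 for low altitude. No treatment, age, sex or batch is among the labels, and they do not say that a code shared by 3 tissues is 1 bird, so p-values measure the spread between libraries.

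A heart holds atrial and ventricular muscle cells, conduction tissue, valves, vessels, fat, nerve and resident or circulating blood cells, each with its own set of transcripts. A piece of heart tissue therefore carries a mixture, and genes of a scarce cell type or region can differ widely between pieces while the genes of the bulk of the muscle hardly differ. Other genes differ between birds through inherited variants or through their state when sampled. The files do not pair the identifiers with symbols, and 0 of 24881 matched the reference table, so the genes are given by identifier, with no name, role or cell type. In bulk tissue, fewer cells of a type and less RNA per cell cannot be told apart.

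The heart libraries held 12.4 to 15.2 M (mega) counts, the breast muscle libraries 9.31 to 13.1 M and the spleen libraries 11.6 to 14.3 M. Among hearts, L4 stood furthest from the rest, with a median Spearman correlation of 0.825 to the other hearts, followed by H1 at 0.866 and H4 at 0.869, against 0.935 in H2. The breast muscle library H1 stood apart as well, with 0.772 in its tissue, followed by H8 at 0.815, H7 at 0.841 and H4 at 0.844. The label "most uneven between hearts" held for the 120 by construction, but the unevenness was not spread over all hearts alike: H3 supplied 11.6% and H1 11.5% of the summed squared deviations of the 120, and L4 7.35%. In the pool of 2320 the largest share was that of L4, at 18.8%.

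The heart SD of the 120 ran from 0.89 to 2.95 on the log2(CPM + 1) scale, with a median of 1.05. The median over the pool was 0.48, and over all genes with a heart mean of at least 5 CPM it was 0.41. Counting error alone, from a Poisson formula at each gene's heart mean, would give an SD between 0.01 and 0.16. It was not computed for single hearts, where it can differ, mainly in genes with most of their counts in 1 heart. The same genes had a median SD of 0.70 in breast muscle and 0.64 in spleen, against 0.46 and 0.29 over all genes with a heart mean of at least 5 CPM. That these values lie under the heart SD follows from the rule. The ratio of the highest to the lowest heart, in CPM + 1, had a median of 19. The limit fell inside a run of close values: ENSGALG00000001048 (SD 0.8914) and ENSGALG00000005849 (0.8886) were the last inside, and ENSGALG00000032746 (0.8885) and ENSGALG00000001805 (0.8882) the first outside.

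The 120 tended to be less abundant in heart than the pool. Their mean levels ran from 5.14 to 1500 CPM with a median of 14.4, against a median of 25.3 in the pool, and 48 reached 20 CPM. In at least 1 heart, 45 of them fell under 1 CPM, against 14 of the 2200 other genes of the pool, and 9 had no count. A wide spread makes such low hearts more likely. Heart had the highest mean of the 3 tissues for 63 of the 120, breast muscle for 30 and spleen for 27. The share highest in heart was 52.5%, against 29.7% of the pool. Genes with a mean of at least 20 CPM in a tissue and 32 times that of both others were listed from all 24881 identifiers. For these lists CPM was relative to the library total, without TMM scaling. Of the 120, 7 were among the 92 such genes of breast muscle, 5 among the 308 of spleen and 1 among the 71 of heart. The last count was held down by the rule, which left out genes at least 8 times higher in heart with an SD under 1.5.

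The highest and lowest deviations fell unevenly over the hearts. Every heart held a share of the summed squared deviations, from 2.53% in L6 to 11.6% in H3. For 32 of the 120 the highest deviation was in H1, for 15 in H3, for 13 in L4, for 12 in H4 and for 10 in L8. The lowest was in H6 for 17, in L5 for 16 and in H5 for 15. These counts were not taken over the pool. In 10 of the 120, 1 library held more of the squared deviation than all others together, a lower share than the 13.1% of the pool. The SD was larger among high altitude than among low altitude hearts for 81 of the 120 (68.3%, against 30.4% of the pool), with a median SD of 1.21 at high and 0.99 at low altitude.

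**Figure D1:**
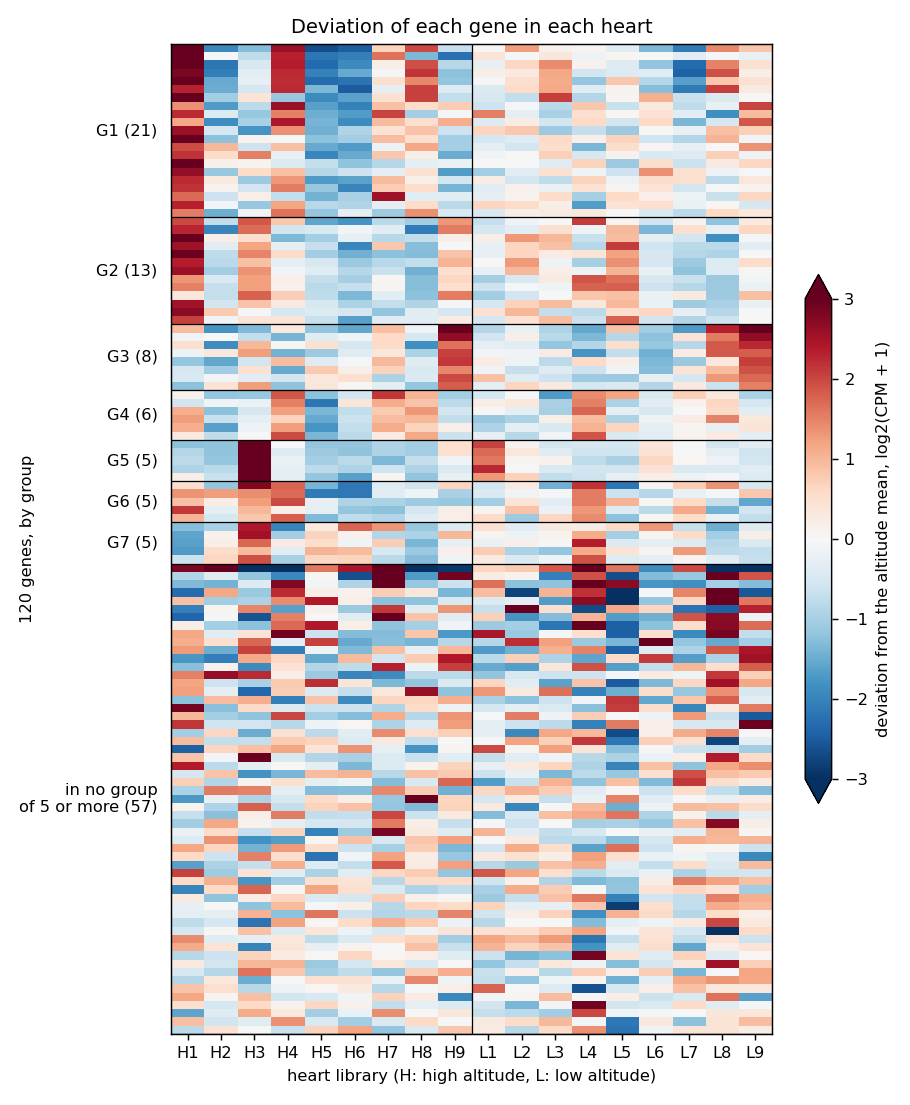
Deviation of each of the 120 genes (rows) from the mean of its altitude group in each of the 18 hearts (columns), in log2(CPM + 1), with red above and blue below the mean and colours ending at 3 and -3. Rows are ordered by the groups G1 to G7 of genes that varied together, with their numbers of genes in brackets; the dark columns of G1 and G2 lie in H1 and that of G5 in H3.

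The 6 genes with the highest SD are described one by one. ENSGALG00000028402 had the highest heart SD, 2.95. In high altitude hearts H1 to H9 its levels were 126, 154, 0.708, 0.46, 52.2, 96.4, 215, 0.367 and 1.41 CPM. In low altitude hearts L1 to L9 they were 73.6, 80.8, 169, 523, 144, 12, 187, 2.43 and 0.945 CPM. Apart from L6 it was nearly on or off: 12 hearts of both altitudes lay above 10 CPM and 6 lay under 3 CPM, namely H3, H4, H8, H9, L8 and L9. L6, at 12 CPM, lay between the levels, and the widest gap, 2.03 on the log2 scale, was from L6 up to H5 at 52.2 CPM. It had 0 counts in all 18 breast muscle and in 17 of 18 spleen libraries, so no other tissue could show whether a code low in heart was low elsewhere.

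ENSGALG00000043859 also fell into separate levels. It lay between 40.5 and 207 CPM in 5 hearts, H4, H7, L1, L4 and L5, and under 10 CPM in the other 13, the highest of which was H5 with 9.1 CPM. Both altitudes held hearts of either level. Its levels in the other tissues stayed at or under 2.58 CPM, with no such gap. In spleen, H4, H7, L1, L4 and L5 had 1.42, 2.03, 2.2, 2.43 and 2.37 CPM, where L8 was highest with 2.58 CPM. Over the codes r with spleen was 0.41 (permutation p = 0.0966, adjusted p = 0.303) and rho 0.55 (permutation p = 0.022, adjusted p = 0.16), by the test described further on, and r was 0.28 without L4 and H7. Among the 120, 20 genes had an empty interval of at least 1 on the log2 scale with 3 or more hearts on each side, and 6 had one of at least 1.5. Wide gaps go with the high SD that chose these genes, and they were not counted over the pool.

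ENSGALG00000037641 ran from 1.12 CPM in H6 to 710 CPM in H7, with medians of 6.26 CPM at high and 21.4 CPM at low altitude. H7 was followed by L8 with 168 CPM, H9 with 97.9, L4 with 78.4 and L9 with 76.5. H7 and L8 were also its highest libraries in breast muscle, at 91 and 120 CPM, and in spleen, at 11.5 and 15.5 CPM, while L9 was low in both, at 1.32 and 0.257 CPM.

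ENSGALG00000035810 was at 0 in H1 and reached 22.5 CPM in H4 among high altitude hearts, with a median of 4.69 CPM. In low altitude hearts it ran from 0.406 CPM in L5 over a median of 24.1 to 105 CPM in L8. The ranges overlapped, since L2, L5 and L9 lay with the lower high altitude hearts. L8 was its highest library in all 3 tissues, with 180 CPM in breast muscle and 137 CPM in spleen.

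ENSGALG00000021139 was scarce in heart, at 0.507 to 239 CPM, and abundant in spleen, with a mean of 6144 CPM there. Its high hearts were L8 with 239 CPM, L4 with 200, L9 with 91 and H5 with 85.5. The codes with the least of it in spleen were L9 with 418 CPM and H4 with 616, and both lay in the upper part of the hearts, H4 with 42.4 CPM. ENSGALG00000043742 and ENSGALG00000011551, likewise far higher in spleen than in heart, varied with it between hearts (r = 0.95 and 0.93 over 18 hearts). These 2 were named after their values were seen, and r describes values that share a scaling factor and a library. They shared the low spleens too, with 33.5 and 390 CPM in H4 and 18.8 and 269 CPM in L9.

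ENSGALG00000024272 was highest in H1 at 346 CPM, followed by H4 with 146, H8 with 93.7 and H7 with 37.4. It belongs to G1, a group described below that was high in the same 4 hearts. The other high altitude hearts lay between 2.81 and 14 CPM and the low altitude hearts between 1.11 and 23.4 CPM. The same 4 codes were its highest in spleen, though in another order, with 740 CPM in H7, 628 in H8, 427 in H4 and 171 in H1, apart from L8, whose 289 CPM exceeded H1.

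**Figure D2:**
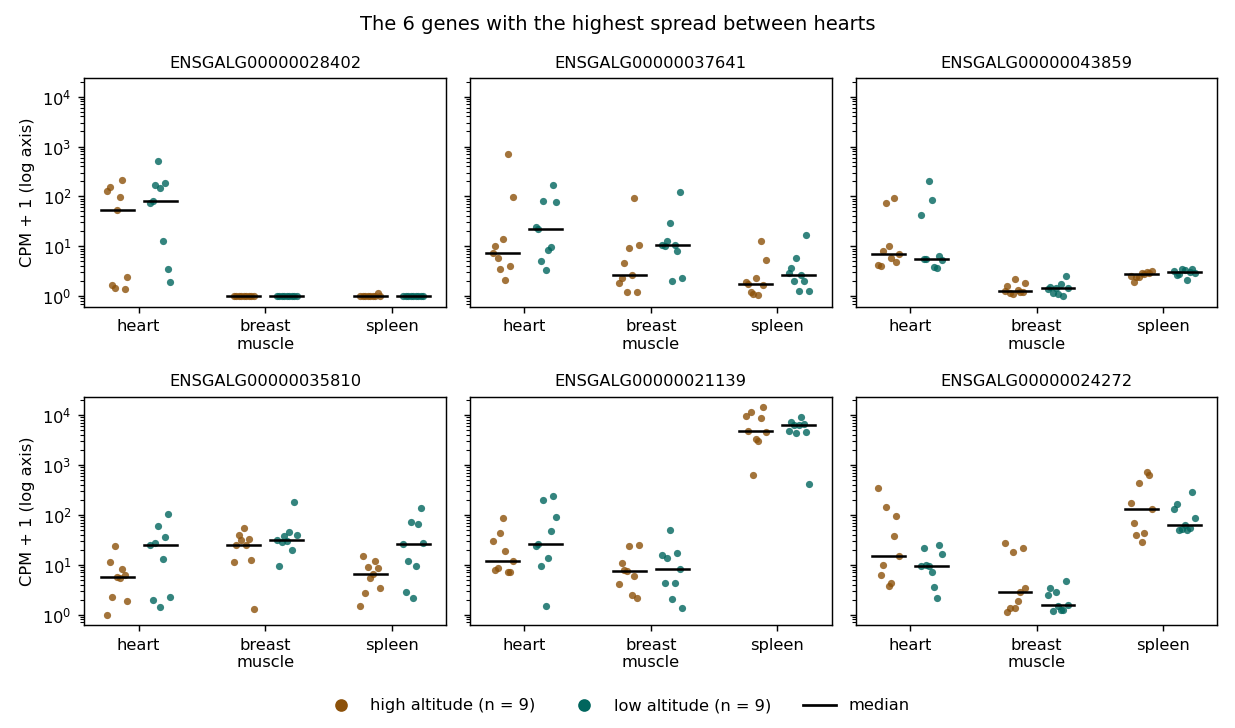
Level (CPM + 1, log axis) of the 6 genes with the highest heart SD in each library of the 3 tissues; points are libraries (9 per altitude and tissue) and lines are medians. ENSGALG00000028402 spans 0.367 to 523 CPM in heart with nearly no counts elsewhere, and ENSGALG00000021139 spans 0.507 to 239 CPM in heart, far under its spleens.

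The 4 genes with the highest heart means showed that spread was not confined to scarce transcripts. ENSGALG00000011306 ran from 610 over a median of 1565 to 2340 CPM at high altitude and from 266 over 733 to 3221 CPM at low altitude. ENSGALG00000043234 ran from 146 over 298 to 1964 CPM and from 492 over 1154 to 4890 CPM, with its lowest low altitude heart above the high altitude median. ENSGALG00000005849 ran from 129 over 292 to 1216 CPM and from 351 over 470 to 2137 CPM. In these 3 genes L4 was the highest low altitude heart, and the ranges of the altitudes overlapped. ENSGALG00000008855 ran from 152 over 372 to 1259 CPM at high and from 217 over 328 to 1137 CPM at low altitude, with H9 and L9 the highest.

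Clustering by average linkage on 1 - r over the hearts, at a height of 0.5, put 63 of the 120 into 7 groups of 5 or more, here called G1 to G7. Another 46 fell into 17 groups of 2 to 4 genes and 11 stood alone. The largest, G1, held 21 genes with a mean r of 0.60, 10 of which had their highest mean in spleen. Its mean deviation was 2.58 in H1, 1.27 in H4, 0.74 in H8 and 0.51 in H7, and -1.58 in H5 and -1.55 in H6. Among low altitude hearts it stayed between -0.82 and 0.48. H1 was the highest library for 17 of the 21. Its lead, ENSGALG00000019553, the gene with the highest mean r to the others of G1, ran from 1.88 over 11 to 139 CPM at high and from 1.02 over 7.56 to 12.5 CPM at low altitude. H1 was the top library, and 8 of 9 low altitude hearts lay under the high altitude median.

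H1, H4, H7 and H8 also shared other features. They had the largest within-tissue scaling factors among hearts, 1.315, 1.336, 1.194 and 1.369 against 0.708 to 1.070 in the others, and among the smaller shares of counts in their 20 most abundant genes, 39.8%, 32.2%, 41.9% and 41.9%. The 308 spleen-selective genes held 0.186% of the counts in H1, against 0.0413% to 0.135% in the other hearts. Of G1, 17 of 21 were chosen again with library totals in place of scaling factors. Without H1, 11 of 21 were chosen again. Of the 21, 20 had a positive r with ENSGALG00000016400, the gene whose followers the rule left out, and in 6 it was 0.4 or more, so the group borders on what was left out. The part of cell makeup or RNA quality in G1 was not tested.

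G2 held 13 genes, 12 of them highest in heart, with a mean r of 0.67. Its mean deviation was 2.19 in H1 and 1.10 in H3 at high altitude and 1.18 in L5 at low altitude, with H8 lowest at -1.07. ENSGALG00000044240 led it, at 13.6 over 22.3 to 304 CPM in high and 41.8 over 80.3 to 187 CPM in low altitude hearts. All 9 low altitude hearts lay above the high altitude median, while H1 lay above all of them. Without H1, 6 of the 13 were chosen again.

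G3 held 8 genes that were high in H9 (2.19), L9 (2.13) and L8 (1.18), 7 of them highest in heart. Its lead ENSGALG00000001862 was at 23.2 CPM in H9 and 25.4 CPM in L9, with medians of 2.52 and 1.83 CPM. It needed both hearts: without H9, 2 of the 8 were chosen again, and without L9, 3. ENSGALG00000008855, given above, was one of the 8.

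G4 (6 genes) was highest in H4 and L4 (1.42 in each) and lowest in H5 (-1.57). Without H5 or without L3, 1 of the 6 was chosen again, and without H4, 2. G6 (5 genes) was highest in L4 (1.59), followed by H4 and H3 (1.46), and lowest in H6 (-1.43). Their leads, ENSGALG00000027281 and ENSGALG00000008206, reached 38.7 and 84.6 CPM in L4. G7 (5 genes) was highest in H3 (1.91) and L4 (1.34) and lowest in H1 (-1.37) and H8 (-1.18). It was the least particular of the groups. Of the genes with a heart mean of at least 5 CPM, 110 had an r of at least 0.8 with its lead ENSGALG00000005849, 48 of them in the pool outside the 120. The leads of the other groups had 2 to 32 such genes. G7 was also tied to the scaling, since none of its 5 genes was chosen with library totals alone, and without H3, 1 was.

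G5 held 5 genes that were abundant in breast muscle and far higher in 1 heart, H3, than in the others. ENSGALG00000006591 had 191 CPM in H3, ENSGALG00000029606 188, ENSGALG00000006572 254, ENSGALG00000006835 94.2 and ENSGALG00000002907 149. The lead, ENSGALG00000029606, had a median of 0.324 CPM in high and 0.235 CPM in low altitude hearts, where L1 was highest with 3.9 CPM. ENSGALG00000002907 had a count in every heart, and outside H3 its highest level was 6.77 CPM, in L1. These levels in H3 were 0.77%, 0.79%, 0.76%, 0.65% and 0.64% of the breast muscle means. ENSGALG00000000164 of G6 and ENSGALG00000005458 of G7, with breast muscle means of 1188 and 2301 CPM, had 2.7% and 1.1% in H3. The former was not particular to H3, since it was higher in L4, at 3.5%, and reached 1.9% in L8. The latter was highest in H3, followed by L4 at 0.6%. The mean r among the 5 genes of G5 over hearts was 0.96, and the mean deviation was 5.84 in H3 and 1.77 in L1. H3 held 71.5% to 77.7% of the squared deviation of each of the 5, and their heart medians were 0.0903 to 2.15 CPM. Their choice thus rested on H3, and r mostly describes that 1 heart.

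The same heart was high for breast muscle genes in general. Over the 92 breast muscle-selective genes, the median level in H3 was 0.93% of the breast muscle mean, against 0.072% to 0.16% in the other hearts. In 56 of the 92 H3 was the highest heart, and 3 of the 92 were at 0 there, against 13 to 28 in the other hearts. Together these genes held 0.249% of the counts of H3 and 0.0277% to 0.169% of the other hearts. Without H3 none of the 5 genes of G5 was chosen. The part of breast muscle RNA in the level of these genes in H3 was not tested.

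**Figure D3:**
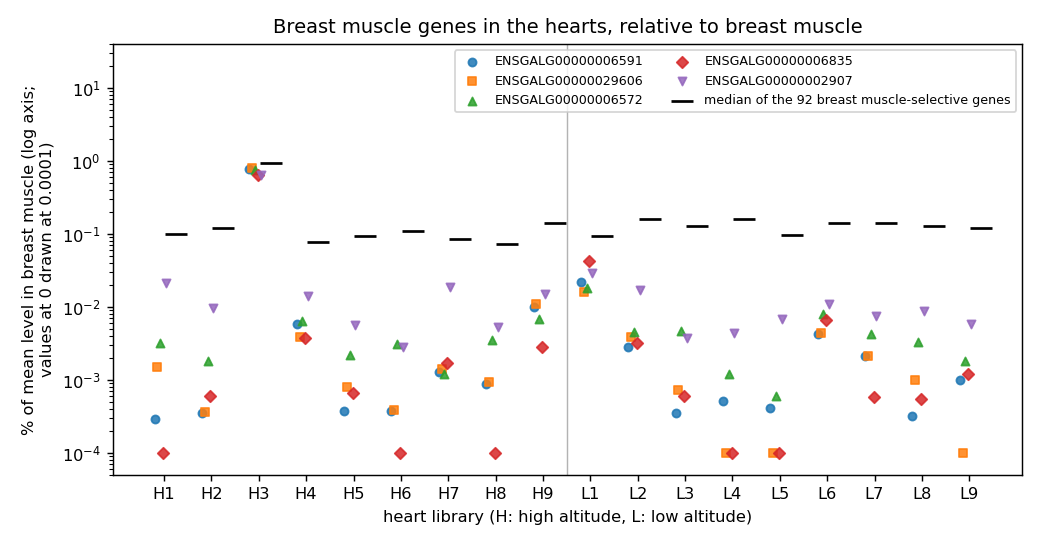
Level of the 5 genes of G5 in each heart (symbols) and the median over the 92 breast muscle-selective genes (black bars), as a percentage of the mean level in breast muscle (log axis, with values at 0 drawn at 0.0001). In H3 the 5 genes lie at 0.64% to 0.79% and the median at 0.93%, above all other hearts.

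The comparison of altitudes asks whether the level of these genes differed between the breeds. Altitude means were removed before the genes were chosen, so the difference itself was not used, but the spread that its test divides by was. In heart, 116 of the 120 passed the filter on low counts; the 4 that did not were 3 genes of G5 and 1 of G1. None had an adjusted p under 0.05 by edgeR's quasi-likelihood test with Benjamini-Hochberg adjustment over 11872 genes, of which 0 were called as well (0%). DESeq2 called 2 of the 116, beside 22 of all 11872 genes, and limma-voom called 0 of the 116. The smallest edgeR adjusted p among the 116 was 0.247. At an unadjusted p under 0.05 there were 25 of 116 (21.6%), against 6.05% of all genes tested: 7 higher at low altitude (6.03%, against 3.27%) and 18 lower (15.5%, against 2.78%). The log2 fold change, low over high altitude, was above 0 in 49 of 116 (42.2%, against 50.7% of all genes). Its median was -0.14 for the 116 and 0.00 for all genes, and the median standard error (SE) was 0.54 against 0.23, so a change had to be larger in these genes to stand out.

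ENSGALG00000041988 had the smallest p in heart. It ran from 59.2 over a median of 174 to 757 CPM in high altitude hearts and from 15.4 over 41.6 to 107 CPM in low altitude hearts. All 9 low altitude hearts lay under the high altitude median, although the ranges overlapped. The log2 fold change was -2.53 (SE 0.48, edgeR unadjusted p = 3.18e-05, adjusted p = 0.247). ENSGALG00000043727 ran from 9.34 over 40.7 to 148 CPM and from 6.71 over 12 to 39.4 CPM, again with all 9 low altitude hearts under the high altitude median. Its log2 fold change was -2.16 (SE 0.52, edgeR adjusted p = 0.496). DESeq2 called both genes.

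In the opposite direction, ENSGALG00000040101 ran from 0 over 1.31 to 7.15 CPM in high and from 1.51 over 8.51 to 34.1 CPM in low altitude hearts. All 9 low altitude hearts lay above the high altitude median, and the log2 fold change was 2.40 (SE 0.68, edgeR adjusted p = 0.552). ENSGALG00000035810, with the levels given above, had 2.24 (SE 0.91, edgeR adjusted p = 0.812), and 6 of 9 low altitude hearts lay above the high altitude median.

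The lower direction in heart came mostly from G1, which was high in H1, H4, H8 and H7, all high altitude hearts. These 4 had the largest scaling factors among hearts, and whether that trait enters the altitude difference was not tested. In G1 the log2 fold change was negative in 20 of 20 tested genes, with a median of -1.32, and 11 had an unadjusted p under 0.05. The genes of G1 varied together (mean r 0.60), so these are not 20 separate observations. Without H1, 18 were negative with a median of -0.89 and 7 had such a p. By limma-voom 5 of 20 had such a p, with a median of -0.81, and with the replicate number as a block 4 of 20, with a median of -0.73. G2 moved the other way once H1 was left out: 2 of 13 had a p under 0.05 with all libraries and a median of 0.38, and 8 of 13 without H1, with a median of 0.96 and none negative. For the 2 tested genes of G5 the median was -3.48 with all hearts, 0.24 without H3 and 0.25 by DESeq2. Leaving out both H1 and H3, which was chosen after seeing the data, gave 27 of the 116 with an unadjusted p under 0.05. Of these, 16 were higher at low altitude, so the balance of directions in the 116 changed. G1 still had 17 of 20 negative and 7 of 20 with such a p, and G2 had 11 of 13 with such a p. Shares of all genes at an unadjusted p were counted only in the edgeR fit with all libraries. The shifts without single hearts were thus not set beside all genes.

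In breast muscle, 76 of the 120 passed the filter and none had an adjusted p under 0.05 by edgeR, against 1 of 10120 genes (0.00988%). DESeq2 called 4 of the 76, beside 469 of all 10120 genes, so nothing is read from the 4. By limma-voom 0 of the 76 were called. The unadjusted p was under 0.05 in 11 of 76 (14.5%), a share under the 18.2% of all genes, with 2 higher (2.63%, against 6.48%) and 9 lower (11.8%, against 11.7%). The log2 fold change was above 0 in 42 of 76 (55.3%, against 44.9%). ENSGALG00000025887 ran from 12.1 over 26 to 128 CPM at high and from 4.99 over 12.7 to 41.3 CPM at low altitude, and 8 of 9 low altitude libraries lay under the high altitude median. Its log2 fold change was -1.67 (SE 0.48, edgeR adjusted p = 0.1). ENSGALG00000041988 was lower here too, at 230 over 396 to 941 CPM against 238 over 884 to 2055 CPM (log2 fold change -1.14, SE 0.35, edgeR adjusted p = 0.109). ENSGALG00000003401 and ENSGALG00000043234 had log2 fold changes of 1.97 (SE 0.71) and 0.92 (SE 0.42), with edgeR adjusted p = 0.156 and 0.251. Leaving out the breast muscle library H3 brought 3 of the 77 then tested past the threshold, beside 455 of 10219 genes, so nothing is read from it about the 120.

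In spleen, 110 of the 120 passed the filter and none had an adjusted p under 0.05 by edgeR, as for all 13092 genes (0%). DESeq2 called 1 of the 110, beside 20 of all 13092 genes, and limma-voom called 0 of the 110. The unadjusted p was under 0.05 in 20 of 110 (18.2%), against 5.77% of all genes, with 9 higher (8.18%, against 2.95%) and 11 lower (10%, against 2.83%). The log2 fold change was above 0 in 65 of 110 (59.1%, against 50.5%). ENSGALG00000040101 ran from 0.362 over 0.896 to 5.04 CPM at high and from 0.748 over 5.17 to 30.3 CPM at low altitude, with 8 of 9 low altitude spleens above the high altitude median (log2 fold change 2.43, SE 0.65, edgeR adjusted p = 0.568). ENSGALG00000035810 had 2.63 (SE 0.76, edgeR adjusted p = 0.712). ENSGALG00000041988 ran from 7.33 over 19.2 to 64 CPM and from 6.15 over 11.4 to 17.6 CPM, with all 9 low altitude spleens under the high altitude median (log2 fold change -1.13, SE 0.36, edgeR adjusted p = 0.758). ENSGALG00000002549 had -1.16 (SE 0.37, edgeR adjusted p = 0.758).

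Of the 108 tested in both heart and spleen, 10 had an unadjusted p under 0.05 in both (9.26%), against 80 of 11210 genes (0.714%), and all 10 had 1 sign in both, against 74 of the 80. Of the 68 tested in all 3 tissues, ENSGALG00000024272 and ENSGALG00000041988 had such a p in each (2.94%, against 0.221% of 9511 genes), with negative log2 fold changes throughout. Both belong to G1, as do several of the 10, and genes of G1 varied together between hearts, so they are not separate observations. For ENSGALG00000041988, H1 was the highest high altitude library in all 3 tissues. The 3 tissues of a code are not independent if they come from 1 bird, which the labels do not state.

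Whether a heart that was high for a gene had a breast muscle or spleen of the same code that was high as well was tested directly, since the rule did not use how tissues go together. Pearson's r was taken over the 18 codes between log2(CPM + 1) in heart and in the other tissue, each centred within altitude, and the codes were permuted within altitude in 100000 resamples, with adjustment over all genes that passed the filter in both tissues. For heart and breast muscle, 73 of the 120 were tested and 6 had an adjusted p under 0.05 (8.22%), against 0.718% of 9749 genes. For heart and spleen, 21 of 108 did (19.4%), against 5.94% of 11210 genes. All these r were positive; over all genes, calls with a positive r were 0.708% with breast muscle and 5.92% with spleen. An r of at least 0.5 was found in 32 of 73 (43.8%, against 10.4%) with breast muscle, and in 35 of 108 (32.4%, against 20.9%) with spleen. The median r of the 120 was 0.40 with breast muscle, against 0.13 over all genes, and 0.32 with spleen, against 0.28. In all, 23 genes passed in at least 1 pair, 4 in both, and 7 could be tested in neither. The 120 were chosen for a high heart SD and a minimum heart mean, and all genes tested were not matched for either. Whether spread and level alone raise these shares was not tested. The count for breast muscle was less firm, at 2 to 6 when 1 code was left out, with 2 without H3 or H4, against 16 to 24 for spleen.

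**Figure D4:**
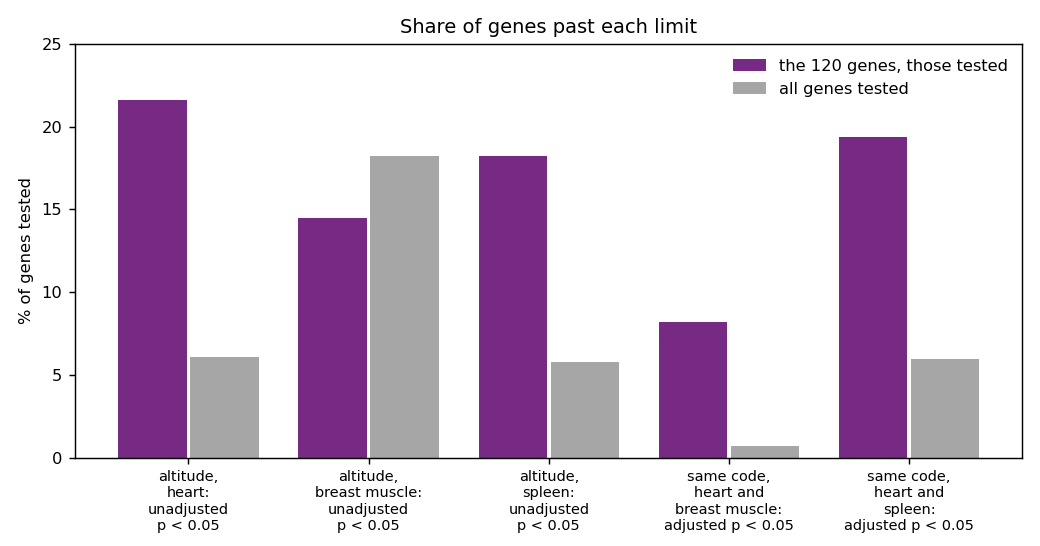
Percentage of genes past each limit among those of the 120 that were tested (purple) and among all genes tested (grey), for the altitude comparison in each tissue at an unadjusted p under 0.05 and for the code test between tissues at an adjusted p under 0.05. The share of the 120 is above that of all genes except for altitude in breast muscle, with 14.5% against 18.2%.

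ENSGALG00000011255 had the highest r with breast muscle, and 1 code made most of it. L8 had 1.88 CPM in heart and 2.77 CPM in breast muscle, while the medians of low altitude libraries were 36.8 and 41.2 CPM. High altitude libraries ran from 24 to 65.4 CPM in heart and from 30.4 to 60.9 CPM in breast muscle. Pearson's r was 0.94 (permutation p = 0.00019, adjusted p = 0.0378) and Spearman's rho 0.80 (permutation p = 0.00067, adjusted p = 0.0797). Leaving out L8 and L7, the codes farthest from the heart median, gave 0.60. Without L8 alone r was 0.72, and the adjusted p no longer passed the threshold in that and 9 others of 22 alternatives, with 0.125 the highest.

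ENSGALG00000024272, described above as high in H1, H4, H8 and H7, had 26.6, 17.4, 20.4 and 1.84 CPM in the breast muscles of these codes and at most 3.77 CPM in all others. These breast muscles had the lowest median Spearman correlations of their tissue, 0.772, 0.844, 0.815 and 0.841, against 0.884 to 0.941 in the others. Breast muscle-selective genes held 3.92%, 9.14%, 7.22% and 12% of their counts, against 15.6% to 27% in the others. Among hearts, these codes had the largest scaling factors. Whether such library-wide traits enter r was not tested. For ENSGALG00000024272 the values were as follows. Its r with breast muscle was 0.90 (permutation p = 2e-05, adjusted p = 0.0162), its rho 0.86 (permutation p = 0.00013, adjusted p = 0.0453), and r was 0.81 without H1 and H4. With spleen r was 0.75 (permutation p = 0.00276, adjusted p = 0.048), rho 0.80 (permutation p = 0.00079, adjusted p = 0.0328), and r 0.86 without the same codes.

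ENSGALG00000038876 passed the threshold in both pairs, but with breast muscle its adjusted p rose over 0.05 in 9 of 22 alternatives, to 0.0837 at most. In heart it ran from 2.17 over 4.33 to 9.25 CPM at high and from 0 in L8 over 8.45 to 28.2 CPM in L4 at low altitude. In spleen it ran from 1.18 to 5.5 CPM and from 0.222 in L8 to 9.21 CPM in L6. With spleen r was 0.94 (permutation p = 1e-05, the smallest that 100000 resamples can give, adjusted p = 0.00204), rho was 0.91 (permutation p = 1e-05, adjusted p = 0.0034), and r without L8 and L4 was 0.93. With breast muscle r was 0.88 (permutation p = 9e-05, adjusted p = 0.035), rho 0.75 (permutation p = 0.00079, adjusted p = 0.0837) and r without these codes 0.85. ENSGALG00000040901 and ENSGALG00000042863 were the remaining genes past the threshold in both pairs, with r of 0.80 and 0.87 with breast muscle and 0.79 and 0.68 with spleen.

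ENSGALG00000013993 was highest in H1 in both heart, with 75.6 CPM against a high altitude median of 7.9, and spleen, with 160 CPM against 26.3. Over the codes r was 0.86 (permutation p = 3e-05, adjusted p = 0.0037), rho 0.86 (permutation p = 7e-05, adjusted p = 0.00862), and r was 0.71 without H1 and H4. ENSGALG00000033159 was highest in L4 in both tissues, with 43.3 CPM in heart and 4.04 CPM in spleen against low altitude medians of 3.71 and 0.915 CPM. Its r with spleen was 0.86 (permutation p = 3e-05, adjusted p = 0.0037), its rho 0.85 (permutation p = 0.0001, adjusted p = 0.0105), and r was 0.83 without L4 and L2.

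**Figure D5:**
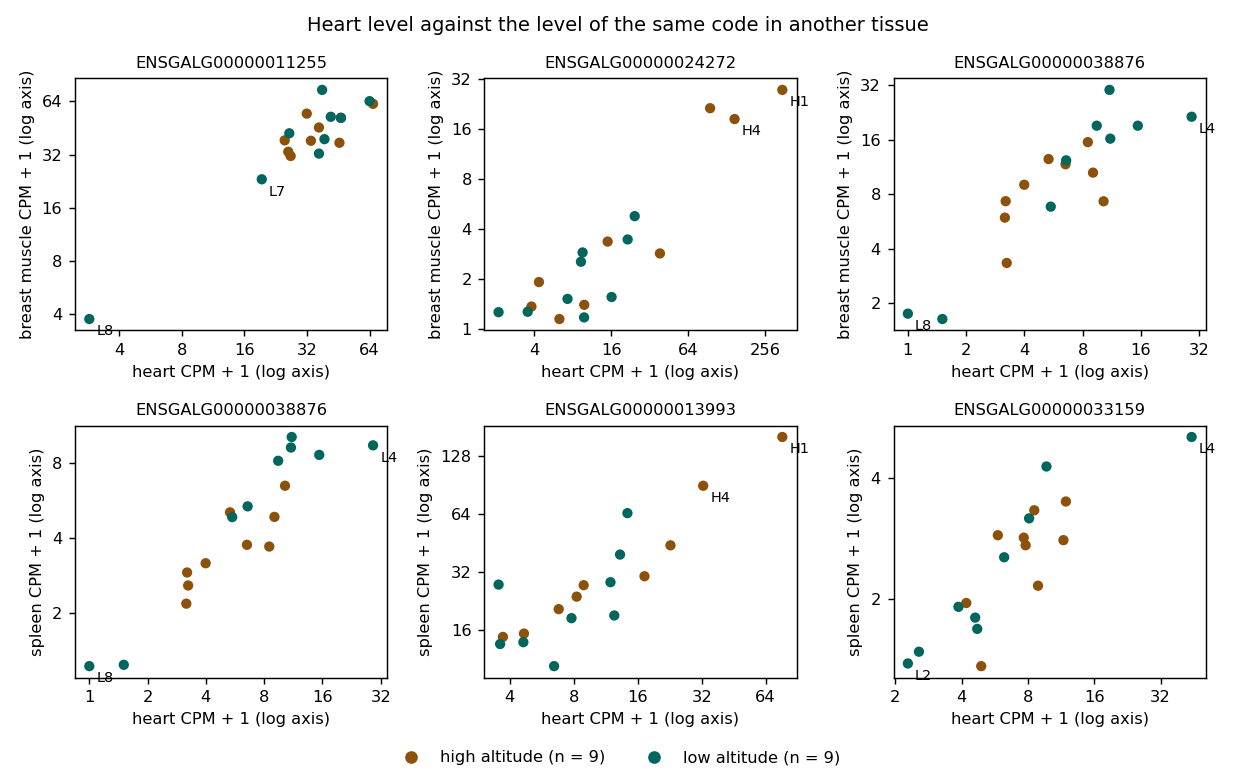
Heart level against the level of the same code in breast muscle (upper row) and in spleen (lower row), in CPM + 1 on log axes, for the 3 genes with the highest r in each pair; points are the 18 codes, with the 2 codes farthest from the heart median named. For ENSGALG00000011255 the code L8 lies far below the rest in both tissues.

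By group, the calls were few. Of G1, 5 of 20 tested genes passed with spleen, with a median r of 0.55 and 18 above 0, and 1 of 12 with breast muscle, with a median r of 0.56. G2 passed in none of 13 with spleen, with a median r of 0.22, and in none of 6 with breast muscle, although its median r there was 0.59. For G3 1 of 8 passed with spleen, and for G4, G6 and G7 none in either pair. Neither of the 2 tested genes of G5 passed with breast muscle (median r 0.22), and the 1 tested with spleen did not. The 57 genes outside these groups held most of the calls, 15 of 52 with spleen and 5 of 37 with breast muscle. Differences between groups were not tested. Of the 6 genes with the highest SD, ENSGALG00000037641 and ENSGALG00000035810 also passed with spleen, each with r = 0.84 (permutation adjusted p = 0.00721 and 0.00857, rho 0.75 and 0.85), and without the 2 farthest codes r was 0.69 and 0.77. With breast muscle neither of these genes passed, with r of 0.77 and 0.47 (permutation adjusted p = 0.0686 and 0.344, rho 0.61 and 0.37). Without the 2 farthest codes r with breast muscle was 0.48 and 0.33.

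Not all shared codes pointed the same way. ENSGALG00000021139, scarce in heart and abundant in spleen, had an r of -0.45 with spleen (permutation p = 0.0748, adjusted p = 0.266, rho -0.52), and ENSGALG00000008855 had -0.63 (permutation p = 0.00474, adjusted p = 0.0636, rho -0.62), with -0.42 when H9 and L9 were left out. Neither passed the threshold.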

How the data were processed

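The deposited files held raw counts per gene, 1 file per library, for 18 heart, 18 breast muscle and 18 spleen libraries. The build galGal4 and the tools HISAT2 2.0.4, featureCounts, FastQC, Cuffdiff and Cufflinks are named by the submitters' processing notes, with no role or order given. Per the labels' protocols, the mRNA kit was stranded (TruSeq). How strand was treated in counting is not given in these sources, and reads of overlapping, antisense and near-identical genes cannot be told apart here. Every row of the files named a gene.

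TMM factors over all 54 libraries (edgeR 4.0.16, R 4.3.3) gave the CPM used to choose and describe the genes. Altitude was tested within each tissue by edgeR's robust quasi-likelihood test after TMM scaling and the default low-count filter (filterByExpr), and adjusted over all genes tested. The code test used Python 3.11.15 with numba 0.67.0. Alternatives were RLE factors, no filter, DESeq2 1.42.0, limma 3.58.1 (voom), the replicate number as a block, and each library left out. TMM within each tissue and leaving out H1 and H3 were added after the data were seen. Both tests were tested on simulated data.

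The genes and lists were chosen with earlier results of these data known. Genes were named by rule: the 6 highest SDs, the 4 highest means, the lead of each group, the genes at the limit, in each tissue the smallest p in either direction (up to 2 genes each), and the 3 highest r per pair of tissues. Other genes were named after their values were seen. The cell type marker lists could not be used without symbols, and no sequence is shown. Same-numbered high and low altitude libraries were not paired: the correlation of their deviations was above 0.1 in 5 of 9 heart pairs, 3 breast muscle pairs and 5 spleen pairs. The labels do not say that replicates came from separate birds.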

Additional observations from a re-analysis of the deposited data

Results flagged for a closer look

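Among the genes named by rule, 86 sets of 9 libraries (1 altitude and tissue each) were searched for a library whose gap to its nearest neighbour, divided by the range of the set, exceeded the 95% critical value of Dixon's test. Chance gives about 1 in 20, or 4.3 sets, and 12 were found. Most of these sets are heart values of genes chosen for their spread between hearts, so nothing is read from this number or from the single cases. The values in brackets below are the gap divided by the range, given as descriptions without a test. L4 was the highest low altitude heart for ENSGALG00000001048 (0.602), ENSGALG00000005849 (0.624), ENSGALG00000043234 (0.546) and ENSGALG00000033159 (0.512). H9 was the highest high altitude heart for ENSGALG00000001805 (0.554) and ENSGALG00000001862 (0.509), and the highest high altitude spleen for ENSGALG00000040101 (0.567). For ENSGALG00000029606, of G5, H3 was far above the other high altitude hearts (0.772) and L1 above the other low altitude hearts (0.546). For ENSGALG00000011255, L8 was far below the other low altitude libraries in heart (0.616) and in breast muscle (0.610). The share of counts held by the 92 breast muscle-selective genes was 0.249% in H3 and 0.116% in the next high altitude heart (0.652).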

How the results depend on the processing

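Of the 120 genes, 95 to 116 were chosen again when 1 heart was left out, 114 with RLE factors, 97 with TMM within tissues, 98 with log2(CPM + 0.25), 89 with a minimum of 1 CPM and 85 with library totals. The number was 66 with the median absolute deviation, 78 without H1 and H3, and 48 with a minimum of 20 CPM, which only 48 of the 120 reach. For altitude in heart, DESeq2 called 22 genes, 2 of them among the 120; leaving out 1 library gave 0 to 1 genes and 0 of the 120. The 25 with an unadjusted p under 0.05, of the 116 tested, became 16 by limma-voom, 12 with the replicate block, and 20 to 32 with 1 library left out. For these counts, and those below in breast muscle and spleen, the share of all genes was counted only with the main settings. Whether the shifts are particular to the 120 is thus not known. In breast muscle the 1 gene called became 0 with no filter, by limma-voom and with the replicate block, 469 by DESeq2 (4 of the 120), and 0 to 455 with 1 library left out (0 to 3 of the 120). The 11 with an unadjusted p under 0.05 became 20 with no filter and 9 to 16 with 1 library left out. With no filter more of the 120 were tested, so the 20 and the 11 have unlike bases. In spleen DESeq2 called 20 genes, 1 of them among the 120, and leaving out 1 library gave 0. The 20 with an unadjusted p under 0.05 became 13 with the replicate block and 12 to 27 with 1 library left out. For heart and breast muscle over the codes, 70 genes and 6 of the 120 became 38 and 3 by Spearman's rho, and 19 to 67 and 2 to 6 with 1 code left out. For heart and spleen 666 and 21 became 408 to 785 and 16 to 24. The cause of these shifts was not tested. Values were recomputed for the genes named for the smallest altitude p and for the highest r over the codes. Of these values, 384 kept their direction and side of the threshold, and none changed sign. Most of the 384 were altitude results that had not passed with the main settings and still did not. Another 19 no longer passed the threshold (10 for ENSGALG00000011255 and 9 for ENSGALG00000038876, both with breast muscle), and 6 newly passed it. The block used replicate numbers, and whether these pair the libraries is not known.

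The filter on low counts left 116 of the 120 to test in heart, 110 in spleen and 76 in breast muscle. Without symbols, no marker of a cell type could be set beside a group, and an absent call does not show that the altitudes were alike.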

Other observations

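ENSGALG00000029073, like ENSGALG00000028402, was nearly confined to heart, with 0 counts in 17 of 18 breast muscle and 16 of 18 spleen libraries. It was named after its values were seen. Its heart levels ran from 0.519 CPM in L4 to 110 CPM in L2, with 0.784 in L8, 1.11 in L7, 80.7 in H7, 51.1 in H3, 47.7 in L9 and 45.9 in H9. L8 was low for both genes, with 2.43 CPM of ENSGALG00000028402. H3, H9 and L9, which lay under 3 CPM for ENSGALG00000028402, were among the higher hearts for ENSGALG00000029073, and L4 was highest for the former and lowest for the latter. Over the 18 hearts their r was -0.15.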
